A study of Mus musculus with 49 samples.

Results

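The Hox cluster genes are the 39 genes whose symbol is Hox, a cluster letter from a to d and a number. That rule reads the symbol alone and uses no measured value. It takes 39 out of 20489 genes in the deposited tables, and all 39 were listed in each of the 4 tables. Hox genes encode homeodomain transcription factors that tell cells of the embryo where they lie along the head-to-tail axis. They stand in clusters on separate chromosomes, and within a cluster the genes at one end (the anterior paralog groups) come on earlier and nearer the head than the genes at the other end (the posterior paralog groups). In embryonic stem cells the clusters are classic Polycomb targets, kept almost silent, and retinoic acid is a textbook trigger that opens them from the anterior end.

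The RNA came from mouse embryonic stem cells of strain 129S6/SvEvTac, in which p53 was activated with 1 µM doxorubicin, and in which Trim24, a chromatin-binding cofactor of p53 with a RING ubiquitin ligase domain, was removed with 500 nM dTAG13. The tables hold 49 libraries in 16 groups. In the time course, cells with degron-tagged Trim24 were sampled at 0 h and, with Trim24 degraded or expressed, at 2, 4, 8 and 12 h of p53 activation (3 libraries a group). The RING-domain experiment had 3 groups of 4 libraries at 4 h of activation: ligase-null, Trim24-degraded and Trim24-expressing cells. A further experiment compared Trim24-degraded with Trim24-expressing cells without p53 activation (3 libraries each), and wild-type cells were sampled with active p53 and uninduced (2 libraries each, hours of activation not given in the labels). All groups other than wild type carried, by their genotype label, the degron tag on the endogenous Trim24 gene. In the ligase-null cells the RING domain of the endogenous gene was edited, by the same clone-picking procedure as for the tag, and their genotype label names only the tag. In the time course dTAG13 and doxorubicin were given for the same hours, so longer activation and longer absence of Trim24 cannot be told apart there. For the Trim24-expressing cells of the uninduced experiment the labels differ, with titles that mark them as untreated and a treatment field that names activated p53. Their RNA of Mdm2, a p53 target gene, was 184 ± 5.54 CPM (SD, n = 3), as against 181 ± 4.65 CPM at 0 h of the time course (SD, n = 3) and 883 ± 22.4 CPM in p53-active Trim24-expressing cells of the RING-domain experiment (SD, n = 4), and they are called uninduced here.

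Library depth ran between 14422098 and 35185256 reads over genes, with a median of 19520026. Levels are given as CPM on the TMM-scaled library size, and reads are the whole reads recovered from the deposited log2 values. The label of embryonic stem cells was checked with 10 pluripotency markers, whose summed level was 1164 to 1266 CPM after 12 h of activation with Trim24 expressed, against 5628 to 5701 CPM at 0 h, with no marker at 0 in any group. Markers of 8 primitive endoderm genes, summed, set apart the uninduced experiment and the ligase-null cells. They stood at 3813 to 4782 CPM in the 6 libraries of the uninduced experiment and 1114 to 1242 CPM in ligase-null cells, against 93.4 to 848 CPM in all other libraries. The replicates were described as biological, but nothing says that they were separate derivations, so p-values measure the spread between these libraries. Trim24 was degraded as protein, which its RNA does not check.

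Because Hoxc13 held the most Hox reads in p53-active cells, its sequence is set beside those of its paralogs, to show how far reads of one can be told apart from reads of the others. Hoxc13 (chr15:102921103-102928814, + strand, GRCm38) encodes a posterior homeodomain factor required in hair and nail formation. Its 3 paralogs of group 13 are Hoxa13 and Hoxd13, which pattern the digits and the urogenital tract, and Hoxb13, known from the tail and the prostate. A stretch of 63 bases of each transcript (GENCODE M21) around the third helix of the homeodomain, which reads the DNA, is printed with the 8 codons of the core of that helix in capitals, followed by the same stretch of Hoxb9, which the activation results also turn on.
Hoxc13: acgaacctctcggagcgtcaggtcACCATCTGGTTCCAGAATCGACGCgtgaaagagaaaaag
Hoxa13: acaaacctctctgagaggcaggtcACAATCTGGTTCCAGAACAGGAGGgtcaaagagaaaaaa
Hoxb13: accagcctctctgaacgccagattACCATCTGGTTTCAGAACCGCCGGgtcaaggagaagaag
Hoxd13: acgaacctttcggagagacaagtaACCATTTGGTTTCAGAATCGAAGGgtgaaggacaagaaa
Hoxb9: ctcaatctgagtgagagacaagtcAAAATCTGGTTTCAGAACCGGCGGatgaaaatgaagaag
Even in this most conserved stretch, Hoxc13 was identical to Hoxa13 at 51 of 63 bases, to Hoxd13 at 50 and to Hoxb13 at 49, and to Hoxb9 at 42. Over whole transcripts the longest exact run that Hoxc13 shared with any other Hox transcript was 21 bases (with Hoxd4). Shared runs of 50 bases or more, the shortest read length the study used, were found in 5 of 39 genes (Hoxa6, Hoxb4, Hoxb6, Hoxb9 and Hoxc9). For Hoxb9 the run was 50 bases, shared with Hoxc9, and for Hoxb4 it was 52 bases, shared with Hoxa6, so a few reads of those genes could have been placed on the wrong member.

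Most Hox genes were close to silent in every condition. Of the 39 genes, 34 stayed under 1 CPM in every library and 36 had a median of under 10 reads, whereas none was at 0 reads in all libraries. The 3 genes with a median of 10 reads or more were all posterior: Hoxc13 (23 to 425 reads per library), Hoxb9 (6 to 65) and Hoxd13 (5 to 45). Per kb of exon, the mean level over all libraries was highest for Hoxc13 at 3.77 CPM per kb, followed by Hoxb9 at 0.549, Hoxd13 at 0.301, Hoxd1 at 0.257 and Hoxc12 at 0.207 CPM per kb. The highest mean CPM belonged to Hoxb9 in HOXB (1.41 CPM), Hoxc13 in HOXC (9.28 CPM) and Hoxd13 in HOXD (0.749 CPM). The clusters lie on chromosome 6 (HOXA, 11 genes in 105 kb), 11 (HOXB, 10 genes in 174 kb), 15 (HOXC, 9 genes in 116 kb) and 2 (HOXD, 9 genes in 96.8 kb). In the annotation 16 of the 39 genes share exon sequence with another gene, 6 of them over more than 25% of their exons. Counting used default settings without strand, so reads from the shared sequence cannot be assigned to 1 gene of a pair. Levels of these genes are less certain. Hoxa10, Hoxb4, Hoxb9, Hoxc13, Hoxd1, Hoxd8 and Hoxd13, which the results turn on, share no exon sequence.

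**Figure D1:**
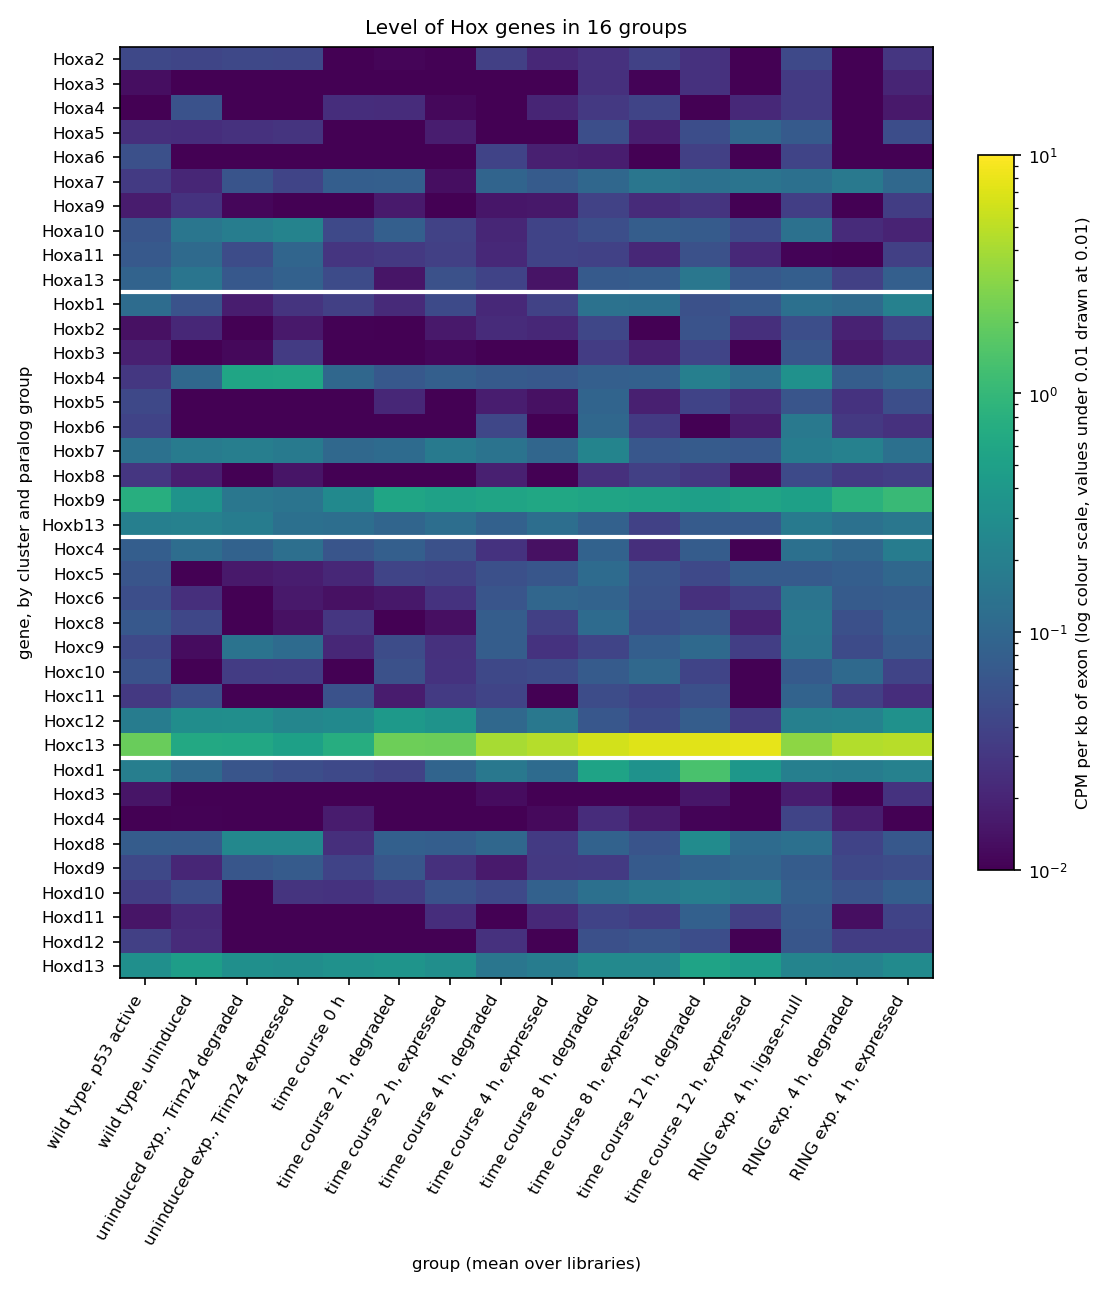
Mean level of Hox genes (rows, by cluster and paralog group, clusters parted by white lines) in each of the 16 groups (columns), as CPM per kb of exon on a log colour scale with values under 0.01 drawn at 0.01. Hoxc13, with a mean over all libraries of 3.77 CPM per kb, is the brightest row in every column but that of uninduced Trim24-expressing cells, where Hoxb4 is at 0.594 and Hoxc13 at 0.512 CPM per kb.

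A gene was tested in a comparison when the number of libraries at 0.5 or more above the lowest log2 value reached the size of the smaller group, and it was called changed at an adjusted p under 0.01 (limma, Benjamini-Hochberg over all genes tested) with a log2 fold change of at least 0.75. By this filter 34 of 39 Hox genes were tested in at least 1 of 15 comparisons, 5 in all of them, among these Hoxb4, Hoxb9, Hoxc13 and Hoxd13, and 5 in none (Hoxa2, Hoxa4, Hoxa6, Hoxd3 and Hoxd4). In at least 1 comparison 8 genes changed, among them Hoxa10, Hoxb4, Hoxb9, Hoxc13, Hoxd1, Hoxd8 and Hoxd13. These were 8 of 34 tested at least once, beside 10393 of 18075 (57.5%) over all genes tested at least once. By position they were 2 of 6 tested anterior genes (paralog groups 1 to 3), 2 of 12 tested central genes (groups 4 to 8) and 4 of 16 tested posterior genes (groups 9 to 13), and they came from all 4 clusters. None of them had a nearest neighbor that was called changed, but no such neighbor was tested in all comparisons. For some, such as Hoxd1 and Hoxd8, whose nearest gene is Hoxd3, the neighbor was tested in none and could not have been called. The gap to the nearest Hox gene was between 0.108 kb (Hoxa10 and Hoxa9) and 14.5 kb (Hoxd1 and Hoxd3). Because the deposited log2 values carry a prior count of 8 reads, a log2 fold change understates the change of a gene with few reads.

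Under p53 activation in Trim24-expressing cells Hoxc13 rose and was called at all 4 times, Hoxd1 was called higher at 8 and 12 h, and Hoxb9 was called higher at 4, 8 and 12 h, although its direction at 8 and 12 h turned under quantile normalization. In bulk RNA a change in the share of cells that express a gene and a change in RNA per cell cannot be told apart. Hoxc13 stood at 1.495, 2.21 and 1.69 CPM in the 0 h libraries (29 to 45 reads), at 5.59, 4.93 and 5.27 CPM at 2 h, at 13.04, 9.88 and 10.9 CPM at 4 h, at 18.6, 17.7 and 16.8 CPM at 8 h and at 20.5, 16.2 and 20.4 CPM at 12 h (308 to 425 reads). Every library at 2 h lay above every library at 0 h, the ranges at 2, 4 and 8 h did not overlap, and those at 8 and 12 h did. Its log2 fold change against 0 h was 1.40 ± 0.16 (SE) at 2 h, 2.44 ± 0.15 at 4 h, 3.07 ± 0.13 at 8 h and 3.17 ± 0.14 at 12 h, a 9.03-fold difference at the last time. Adjusted p-values by limma were 3.43e-06 at 2 h, 3.41e-11 at 4 h, 9.72e-47 at 8 h and 8.32e-13 at 12 h. With no filter its call at 2 h was lost. Hoxc13 made up 24.4 to 30.0% of all Hox CPM at 0 h, 63.9 to 72.6% at 4 h and 71.4 to 74.4% at 12 h with Trim24 expressed. All 4 activation comparisons share the 0 h libraries.

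**Figure D2:**
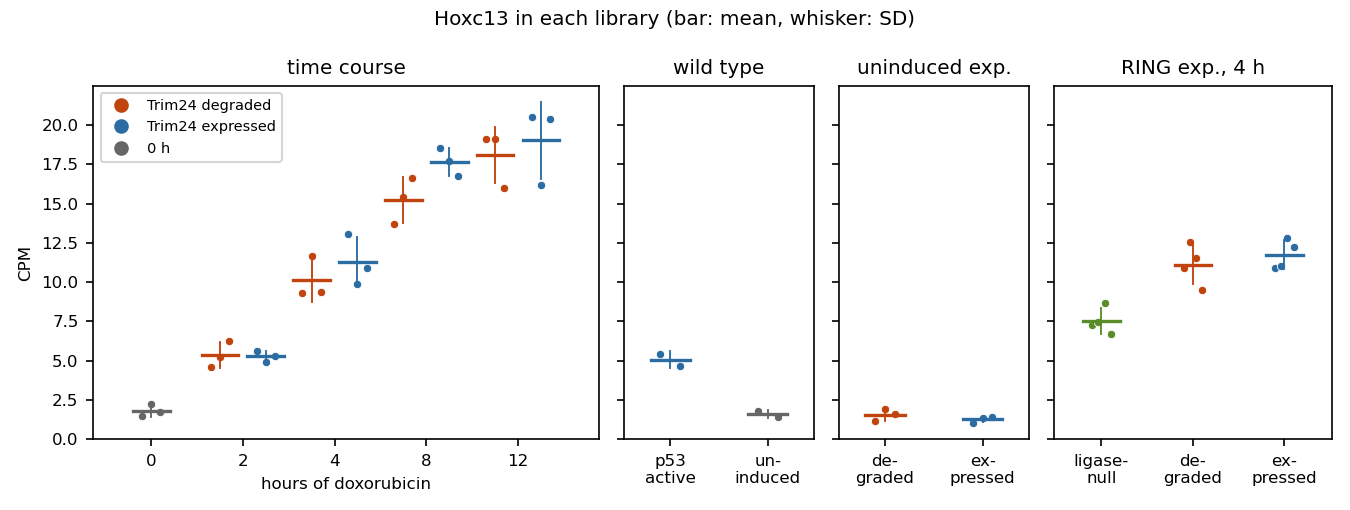
Hoxc13 in CPM in each library (points), with the group mean (bar) and SD (whisker), in the time course, wild-type cells, the uninduced experiment and the RING-domain experiment; hours are evenly spaced on the axis. Libraries at 12 h lie between 16 and 20.5 CPM, and those without p53 activation between 1.04 and 2.21 CPM.

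At 2 h 1 of 12 tested Hox genes changed (3.74% of 15515 genes tested changed), at 4 h 2 of 10 (18.7% of all), at 8 h 4 of 13 (45.3% of all) and at 12 h 3 of 13 (53.2% of all). By direction, 1 Hox gene was higher and 0 lower at 2 h (3.07% and 0.677% of all), 2 were higher and 0 lower at 4 h (12.9% and 5.8% of all), 3 higher and 1 lower at 8 h (27% and 18.3%) and 3 higher and 0 lower at 12 h (30.3% and 22.9%). The median log2 fold change of the tested Hox genes at 12 h was 0.33, against 0.04 over all genes tested. Genes with few reads can pass the filter through 1 group alone, as Hoxd1 and Hoxd10 did at 12 h and Hoxc12 at 0 h. That median is therefore no measure of a shift of the Hox genes. The group-13 paralogs of Hoxc13 were not among the genes called higher. At 12 h the log2 fold change was 0.33 ± 0.19 for Hoxd13, -0.26 ± 0.22 for Hoxb13 and 0.12 ± 0.22 for Hoxa13. Hoxb13 did not exceed 17 reads and Hoxa13 15 reads in any library. Hoxc12, the nearest neighbor of Hoxc13 and likewise a posterior gene, had 1, 1 and 0 reads at 12 h against 6, 7 and 3 at 0 h, a log2 fold change of -0.68 ± 0.20 that passed the adjusted p (0.00458, limma) but not the minimum fold. Under quantile normalization Hoxc12 had -1.11 there and was called.

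Hoxb9, a posterior gene known for thoracic patterning and the mammary gland (chr11:96271457-96276595, + strand), had 0.349, 0.932 and 0.759 CPM at 0 h, 1.22, 1.43 and 1.41 CPM at 2 h, 2.03, 1.61 and 1.14 CPM at 4 h, 1.55, 1.37 and 1.21 CPM at 8 h and 1.45, 0.999 and 1.96 CPM at 12 h. Each activated library lay above each 0 h library, with the first 0 h library (7 reads) the lowest, and the activated groups overlapped one another. The log2 fold change was 0.76 ± 0.22 at 2 h, which did not pass (adjusted p = 0.0226, limma), 0.93 ± 0.23 at 4 h (adjusted p = 0.00211), 0.78 ± 0.20 at 8 h (adjusted p = 0.000326) and 0.83 ± 0.24 at 12 h (adjusted p = 0.00434). Its direction at the late times depends on the scaling: under quantile normalization it was 0.57 at 4 h and not called, and it turned to -0.03 at 8 h and -0.02 at 12 h, where that scaling moved the median of all genes by -0.12 and -0.15. Without the first 0 h library the log2 fold change was 0.67 at 4 h, 0.53 at 8 h and 0.57 at 12 h, and no call held. The calls were likewise lost without the first 4 h library (0.77, adjusted p = 0.0143), the first or the second 8 h library (0.71 and 0.78) and the first or the third 12 h library (0.82 and 0.64). Between 4 and 12 h the difference was -0.10 ± 0.22 (adjusted p = 0.675).

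Hoxd1 (chr2:74762980-74765142, + strand), an anterior gene known in mice for the wiring of pain-sensing neurons, was nearly silent until 8 h. With Trim24 expressed it had 1, 3 and 1 reads at 0 h, 3, 4 and 3 reads at 2 h, 7, 4 and 1 reads at 4 h, 10, 10 and 18 reads at 8 h and 22, 16 and 5 reads at 12 h. All libraries at 8 and 12 h were above those at 0 h, but the third library at 12 h fell among those of 4 h. The log2 fold change was 1.15 ± 0.22 at 8 h (adjusted p = 1.9e-06, limma) and 1.21 ± 0.26 at 12 h (adjusted p = 0.000398), and at 4 h the gene did not reach the filter. At 8 and 12 h Hoxd1 passed the filter through the activated libraries alone, so both calls lean on the group where it was high. Under quantile normalization both calls fell short, at 0.53 and 0.63. Hoxd10, a gene of limb and motor neuron patterning, had 7, 5 and 5 reads at 8 h and 5, 8 and 4 at 12 h, against 1, 2 and 0 at 0 h. Its log2 fold changes of 0.67 at both times passed the adjusted p but not the minimum fold.

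Between 4 and 12 h of activation 2 of 14 tested Hox genes rose, both in HOXD, against 36.9% of all genes tested that changed, 22.2% upward and 14.7% downward. Hoxd13 (chr2:74668310-74671599, + strand), the gene at the posterior end of its cluster, was lowest at 4 h and highest at 12 h: 0.897, 0.589 and 0.993 CPM at 0 h, 0.831, 0.506 and 0.938 CPM at 2 h, 0.676, 0.345 and 0.342 CPM at 4 h, 0.855, 0.424 and 0.656 CPM at 8 h and 1.01, 1.10 and 1.22 CPM at 12 h. The libraries at 12 h all lay above those at 4 h, with a log2 fold change of 0.88 ± 0.21 (adjusted p = 0.000667, limma), while neither 4 h (-0.55 ± 0.22, adjusted p = 0.0374) nor 12 h (0.33 ± 0.19, adjusted p = 0.117) was called against 0 h. Hoxd1 was called in the same comparison at 0.88 ± 0.28 (adjusted p = 0.00992, limma), a call lost without the second or the third 4 h library (0.92 and 0.67) and without the first or the second 12 h library (0.64 and 0.76). Hoxc13 had 0.74 ± 0.11, just under the minimum fold, at an adjusted p of 4.9e-06. Under quantile normalization, which moved the median of all genes by -0.11 here, Hoxd13 had 0.42 and Hoxd1 0.53, and no Hox gene was called. Against 0 h that scaling called, among others, Hoxd13 lower at 4 h (-0.92) and 8 h (-1.05), Hoxc12 at 8 h (-1.09) and 12 h (-1.11) and Hoxb13 at 12 h (-0.82). The split of called Hox genes thus went to 1 higher and 2 lower at 4 h in place of 2 and 0, to 1 and 3 at 8 h in place of 3 and 1, and to 1 and 3 at 12 h in place of 3 and 0.

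**Figure D3:**
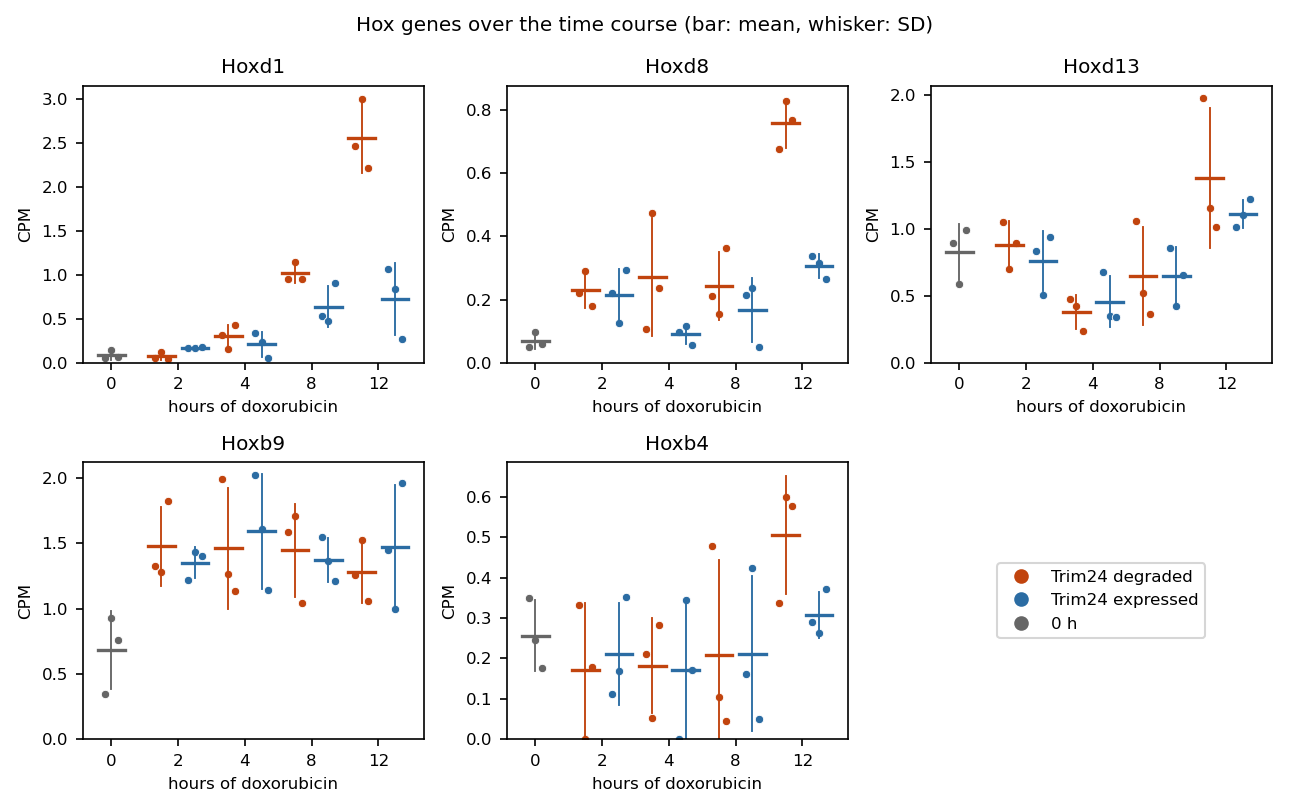
CPM of Hoxd1, Hoxd8, Hoxd13, Hoxb9 and Hoxb4 in each library of the time course (points), with group means (bars) and SD (whiskers) by hours of doxorubicin, evenly spaced, for Trim24-degraded (left of each pair), Trim24-expressing and 0 h cells. In the Trim24-degraded libraries at 12 h Hoxd1 reaches 2.22 to 3.002 CPM and Hoxd8 0.676 to 0.831 CPM, above all other libraries of the time course.

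In wild-type cells 2 posterior genes rose under p53 activation, Hoxc13 and Hoxb9, out of 16 Hox genes tested (10.3% of all genes tested changed, 7.99% upward and 2.27% downward). Hoxc13 had 5.42 and 4.67 CPM in p53-active wild-type cells, against 1.77 and 1.41 CPM in uninduced wild-type cells. Hoxb9 had 2.05 and 1.85 CPM in p53-active cells (65 and 59 reads), against 0.929 and 0.869 CPM in uninduced cells (30 and 29 reads). For both genes the groups were apart by more than the distance between replicates, with log2 fold changes of 1.48 ± 0.17 for Hoxc13 (adjusted p = 1.87e-17, limma) and 0.88 ± 0.20 for Hoxb9 (adjusted p = 0.000113). Both calls were lost when the first p53-active library was left out, at 1.38 for Hoxc13 (adjusted p = 0.0129) and 0.81 for Hoxb9 (adjusted p = 0.0546). Under quantile normalization Hoxb9 had 0.58 and was not called, and Hoxa10 was called lower (-0.88). Hoxd1 had 9 and 14 reads in p53-active wild-type cells, against 8 and 5 in uninduced ones, and was not called (0.37 ± 0.26). Whether activation differed between wild-type and degron cells was not tested, since they stand in separate tables. In both lines these 2 genes were the ones called, at 4 h in the degron line.

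Loss of Trim24 during p53 activation left the Hox genes uncalled at 2, 4 and 8 h, and at 12 h raised 2 genes of the HOXD cluster, Hoxd1 and Hoxd8. Hoxd8 (chr2:74704615-74707933, + strand) is a central gene of the trunk. Hoxd1 had 2.46, 3.002 and 2.22 CPM in Trim24-degraded cells at 12 h (51, 65 and 46 reads), against 1.06, 0.841 and 0.265 CPM in Trim24-expressing cells (22, 16 and 5 reads). Hoxd8 had 0.676, 0.831 and 0.771 CPM in Trim24-degraded cells at 12 h (14, 18 and 16 reads), against 0.338, 0.316 and 0.265 CPM in Trim24-expressing cells (7, 6 and 5 reads). In both genes all degraded libraries lay above all expressing ones. The log2 fold change was 1.51 ± 0.25 for Hoxd1 (adjusted p = 0.000309, limma) and 0.75 ± 0.21 for Hoxd8 (adjusted p = 0.0079), among 17 Hox genes tested, and 4.11% of all genes tested changed, 2.7% upward and 1.41% downward. Hoxd8 lies at the edge of the minimum fold and was no longer called when any 1 of the 6 libraries was left out (0.70 to 0.81, adjusted p between 0.0153 and 0.0309), whereas Hoxd1 stayed called in each case. The median log2 fold change of the tested Hox genes was 0.21, against -0.02 over all genes tested. Genes with few reads can enter that median through 1 group alone, so it is no measure of a shift.

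The starts of both HOXD genes are shown because these 2 members were the ones called for Trim24 loss. Each window runs from 250 bases before to 50 after the gene start (RefSeq, GRCm38.p6), with every CG in capitals.
Hoxd1, chr2:74762730-74763029 (+): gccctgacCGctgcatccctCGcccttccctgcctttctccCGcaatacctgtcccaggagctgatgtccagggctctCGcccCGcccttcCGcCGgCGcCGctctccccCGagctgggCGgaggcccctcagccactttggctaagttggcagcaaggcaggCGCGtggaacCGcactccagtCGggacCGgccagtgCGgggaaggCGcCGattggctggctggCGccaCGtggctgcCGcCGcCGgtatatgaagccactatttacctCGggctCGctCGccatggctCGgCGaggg
Hoxd8, chr2:74704365-74704664 (+): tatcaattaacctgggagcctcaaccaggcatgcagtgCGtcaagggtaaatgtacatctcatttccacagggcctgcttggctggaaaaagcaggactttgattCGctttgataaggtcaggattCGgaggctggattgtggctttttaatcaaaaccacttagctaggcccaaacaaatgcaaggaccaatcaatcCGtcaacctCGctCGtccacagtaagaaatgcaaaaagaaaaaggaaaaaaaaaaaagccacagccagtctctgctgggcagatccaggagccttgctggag
The 2 windows differ in base make-up, with 29 CG in that of Hoxd1 and 6 in that of Hoxd8, against a median of 14.5 over the 24 Hox windows and 7 over 32851 promoters of the same table. Windows were found for 22 of the 39 Hox genes. None was found for Hoxc13 or Hoxb9, so neither was searched. The p53 half-site consensus, which reads the same on both strands, matched neither of the 2 windows. It was found in 3 of 24 Hox windows (12.5%, those of Hoxa11, Hoxd4 and Hoxd10), against 8.36% of all promoters. AGGTCA, a half-site of retinoic acid and other nuclear receptors, searched on both strands, was present in the window of Hoxd8 and not in that of Hoxd1, and in 29.2% of Hox windows against 16.3% of all promoters. These matches are descriptions of letters within the windows.

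Before 12 h the degraded and expressing cells were close. At 2 h 0 of 13 tested Hox genes changed (0.338% of all genes tested changed), and 0 had an unadjusted p under 0.05 (7.52% of all) or a call by limma-voom (0.287% of all). The lowest adjusted p was that of Hoxd1, with 1, 2 and 1 reads in Trim24-degraded cells against 3, 4 and 3 in Trim24-expressing cells (log2 fold change -0.30 ± 0.24, adjusted p = 0.9005, limma). At 4 h 0 of 13 changed (1.15% of all), with 0 at an unadjusted p under 0.05 (24.9% of all) and 0 by limma-voom (1.17% of all), and the lowest adjusted p was that of Hoxc9, a thoracic patterning gene, with 3, 3 and 5 reads against 3, 1 and 0 (0.36 ± 0.24, adjusted p = 0.38, limma). At 8 h 0 of 25 changed (1.58% of all), with 3 at an unadjusted p under 0.05 (22.7% of all) and 0 by limma-voom (1.58% of all). Hoxd1 led there too, at 18, 22 and 21 reads in Trim24-degraded cells against 10, 10 and 18 in Trim24-expressing cells. The groups did not overlap in CPM, but the difference of 0.49 ± 0.23 did not pass (adjusted p = 0.173, limma).

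Whether the effect of Trim24 loss grew between 4 and 12 h was tested directly, and 0 of 23 Hox genes passed (3.51% of all genes tested did), with 2 at an unadjusted p under 0.05 (35.6% of all) and 0 by limma-voom (2.86% of all). Hoxd1 came nearest, with an effect at 12 h that was 1.28 ± 0.36 above that at 4 h (adjusted p = 0.0127, limma), and Hoxd8 had 0.30 ± 0.30. Hoxd1 was called in this test when all groups of the table entered the fit (adjusted p = 0.00415). It was also called without the third Trim24-expressing library of 4 h (1.49) or the first or second of 12 h (1.52 and 1.40). Both sides of this test share libraries with the comparisons above.

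At 12 h other markers differed with Trim24 as well. Of 8 primitive endoderm markers 4 were higher in Trim24-degraded cells (Lama1, Sox17, Dab2 and Gata4) and none lower, with a summed level of 736 to 848 CPM in Trim24-degraded cells against 349 to 390 CPM in Trim24-expressing cells, and none of the 8 at 0. Their part in the Hox results was not tested. In the uninduced experiment, where those markers summed to 3813 CPM or more in every library, Hoxd8 had 13 to 22 reads per library and Hoxd1 1 to 5.

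Hoxc13 was not called for Trim24 loss at any time. In Trim24-degraded cells it had 4.60, 5.23 and 6.25 CPM at 2 h, 9.29, 11.7 and 9.34 CPM at 4 h, 13.7, 15.4 and 16.6 CPM at 8 h and 19.1, 19.1 and 16 CPM at 12 h. These ranges overlapped those of Trim24-expressing cells at 2, 4 and 12 h and lay just under them at 8 h, where the highest degraded library had 16.6 CPM and the lowest expressing one 16.8 CPM. The log2 fold change of Trim24 loss was 0.01 ± 0.14 at 2 h, -0.15 ± 0.11 at 4 h, -0.21 ± 0.11 at 8 h and -0.07 ± 0.10 at 12 h, none of which passed (adjusted p between 0.204 and 0.997, limma). Ordered by mean CPM over all 16 groups, Hoxc13 ran between 19.0 CPM at 12 h with Trim24 expressed and 1.26 CPM in uninduced Trim24-expressing cells, and neighboring groups in that order were apart in range at 5 of 15 steps. Those steps lie below Trim24-expressing cells at 8 h, degraded cells at 8 h, degraded cells at 4 h, ligase-null cells and p53-active wild-type cells. This order runs across 4 tables that were deposited separately, and no test was run across them.

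Without p53 activation Trim24 loss changed 0 of 15 tested Hox genes (0.0781% of all genes tested changed), with 0 at an unadjusted p under 0.05 (7.81% of all) and 0 by limma-voom (0.0651% of all). Hoxc13, which had the lowest adjusted p, stood at 1.16, 1.92 and 1.602 CPM in Trim24-degraded cells, against 1.04, 1.35 and 1.38 CPM in Trim24-expressing cells. The ranges overlapped (0.23 ± 0.18, adjusted p = 0.837, limma). Both groups of this experiment stood out among all libraries by their Hoxb4, a gene known for expanding blood stem cells (chr11:96318267-96321638, + strand): 48, 34 and 34 reads in Trim24-degraded cells and 38, 38 and 36 in Trim24-expressing cells, against 3 to 7 reads at 0 h of the time course. That contrast runs across separate tables and was not tested.

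The RING-domain experiment set ligase-null cells beside Trim24-degraded and Trim24-expressing cells. Trim24 loss by degradation changed 0 of 16 tested Hox genes (1.15% of all genes tested changed), with 1 at an unadjusted p under 0.05 (33.3% of all) and 0 by limma-voom (1.34% of all). That gene was Hoxb9, with 2.01, 2.03, 2.15 and 2.35 CPM in Trim24-degraded cells, against 2.69, 3.02, 2.70 and 2.63 CPM in Trim24-expressing cells. The groups did not overlap, yet the difference of -0.32 ± 0.14 did not pass (adjusted p = 0.1001, limma). The median log2 fold change of the tested Hox genes was -0.15, against 0.02 over all genes tested. Here too genes with few reads can enter the median through 1 group alone, so it is no measure of a shift.

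Ligase-null cells differed from both. Against Trim24-expressing cells 3 of 28 tested Hox genes changed (6.95% of all genes tested did, 4.67% upward and 2.28% downward): Hoxb4 and Hoxa10, a gene of the uterus and of vertebral patterning (chr6:52231197-52240854, - strand), were higher, and Hoxb9 was lower. Against Trim24-degraded cells 2 of 22 changed (6.68% of all, 4.83% upward and 1.85% downward), again Hoxb4 and Hoxa10, both higher. The 2 comparisons share the ligase-null libraries. Those cells came from their own round of editing and clone picking, so the RING mutation and the clone cannot be told apart here.

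Hoxb4 had 16, 26, 16 and 10 reads in ligase-null cells (0.746, 1.35, 0.800 and 0.471 CPM), against 0, 6, 8 and 6 in Trim24-degraded cells and 7, 3, 4 and 5 in Trim24-expressing cells (at most 0.362 CPM). Every ligase-null library lay above every other, the second by most, and without that library the difference from expressing cells was 0.75 (adjusted p = 0.0204) and not called, nor was it without Trim24-expressing replicate 5 (0.85). The log2 fold change was 0.94 ± 0.24 against Trim24-expressing cells (adjusted p = 0.00197, limma) and 1.10 ± 0.23 against Trim24-degraded cells (adjusted p = 0.000232). Hoxa10 had 7, 9, 14 and 5 reads in ligase-null cells, against 1, 2, 3 and 2 in Trim24-degraded cells and 0, 3, 0 and 2 in Trim24-expressing cells. Again the ligase-null libraries were all above the others, at 0.88 ± 0.25 against expressing (adjusted p = 0.00597, limma) and 0.83 ± 0.22 against degraded cells (adjusted p = 0.00273). In both comparisons Hoxa10 passed the filter through the ligase-null libraries alone, so its calls lean on the group where it was high. The call against expressing cells was lost without the second (0.85) or the third ligase-null library (0.73) or without Trim24-expressing replicate 4 or 6 (0.81 each), and that against degraded cells without the third ligase-null (0.68) or the replicate 4 degraded library (0.78). Under quantile normalization Hoxa10 was not called in either comparison (0.76 and 0.56).

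Hoxb9 had 1.26, 1.14, 1.15 and 1.70 CPM in ligase-null cells, under all libraries of the degraded and expressing cells given above. It fell by 0.91 on the log2 scale against Trim24-expressing cells (SE 0.17, adjusted p = 4.83e-05, limma), and its difference from Trim24-degraded cells, -0.59 ± 0.16, passed the adjusted p (0.00288) but not the minimum fold. Hoxc13 ran the same way: 7.27, 7.48, 8.65 and 6.70 CPM in ligase-null cells, against 10.9, 12.6, 11.5 and 9.50 CPM in Trim24-degraded cells and 10.9, 11.04, 12.8 and 12.2 CPM in Trim24-expressing cells. All ligase-null libraries were below all others, with log2 fold changes of -0.54 ± 0.10 against degraded cells (adjusted p = 4.23e-05, limma) and -0.62 ± 0.10 against expressing cells (adjusted p = 7.94e-06), both under the minimum fold. Degraded and expressing cells overlapped for Hoxc13 (-0.08 ± 0.09).

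**Figure D4:**
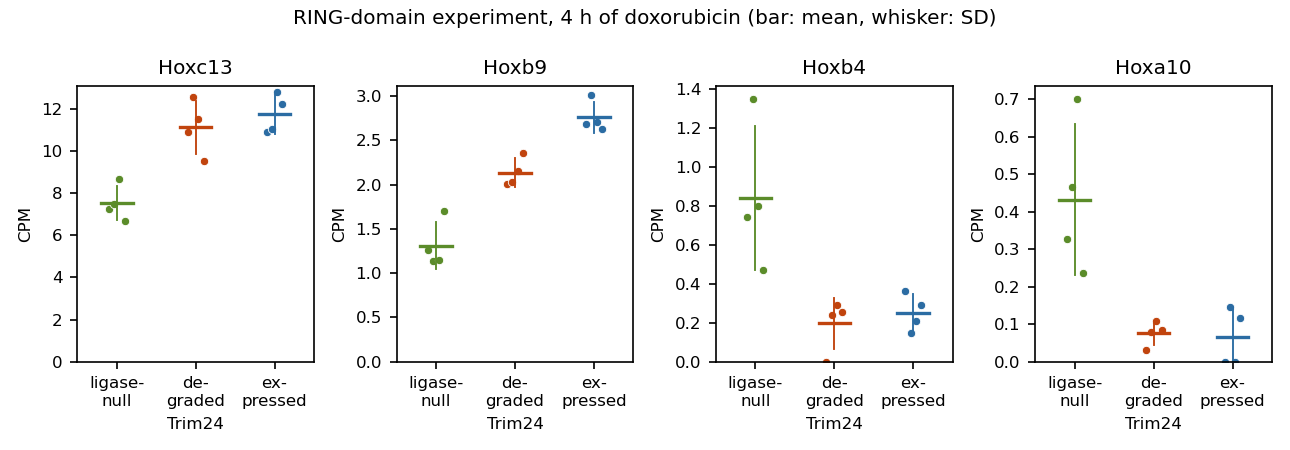
CPM of Hoxc13, Hoxb9, Hoxb4 and Hoxa10 in each library (points) of ligase-null, Trim24-degraded and Trim24-expressing cells at 4 h of activation, with means (bars) and SD (whiskers) over 4 libraries. Hoxb4 and Hoxa10 lie higher in all 4 ligase-null libraries, and Hoxc13 and Hoxb9 lower, with Hoxb9 at 1.14 to 1.70 CPM against 2.01 CPM or more in the others.

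Ligase-null cells also differed in cell type markers. All 8 primitive endoderm markers were higher than in Trim24-expressing cells and than in Trim24-degraded cells, with median log2 fold changes of 2.80 and 2.69 and a summed level of 1114 to 1242 CPM in ligase-null cells, against 97.4 to 108 CPM in Trim24-degraded cells and 93.4 to 101 CPM in Trim24-expressing cells. None of the 8 was at 0 in any group. Of the 10 pluripotency markers 0 changed against Trim24-expressing cells by limma or limma-voom, with 6 at an unadjusted p under 0.05 (45.9% of all genes tested). Neuroectoderm markers summed to 76.3 to 91.3 CPM in ligase-null cells, against 164 to 181 CPM in degraded and 152 to 176 CPM in expressing cells. Among them Tubb3 was lower in ligase-null than in expressing cells (-1.07 ± 0.06) and Pax6 higher (1.01 ± 0.21), of 7 tested there, with none at 0 in all libraries of a group. Fibroblast markers summed to 13.6 to 14.6 CPM in ligase-null cells, against 26.7 to 28.3 CPM in degraded and 26.8 to 30.7 CPM in expressing cells. Over the whole series, Hoxb4 reached 10 or more reads in 12 of 49 libraries: all 6 of the uninduced experiment, the 4 ligase-null libraries and 2 of 3 Trim24-degraded libraries at 12 h. Primitive endoderm markers summed to 736 to 4782 CPM in those 12 libraries, against 93.4 to 832 CPM in the other 37. The cut of 10 reads depends on depth. The first Trim24-degraded library at 8 h fell short with 9 reads, at 0.477 CPM of Hoxb4 and a marker sum of 337 CPM. Ligase-null replicate 4, counted with 10 reads, had 0.471 CPM. The part of the primitive endoderm markers in the Hoxb4 and Hoxa10 results was not tested.

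**Figure D5:**
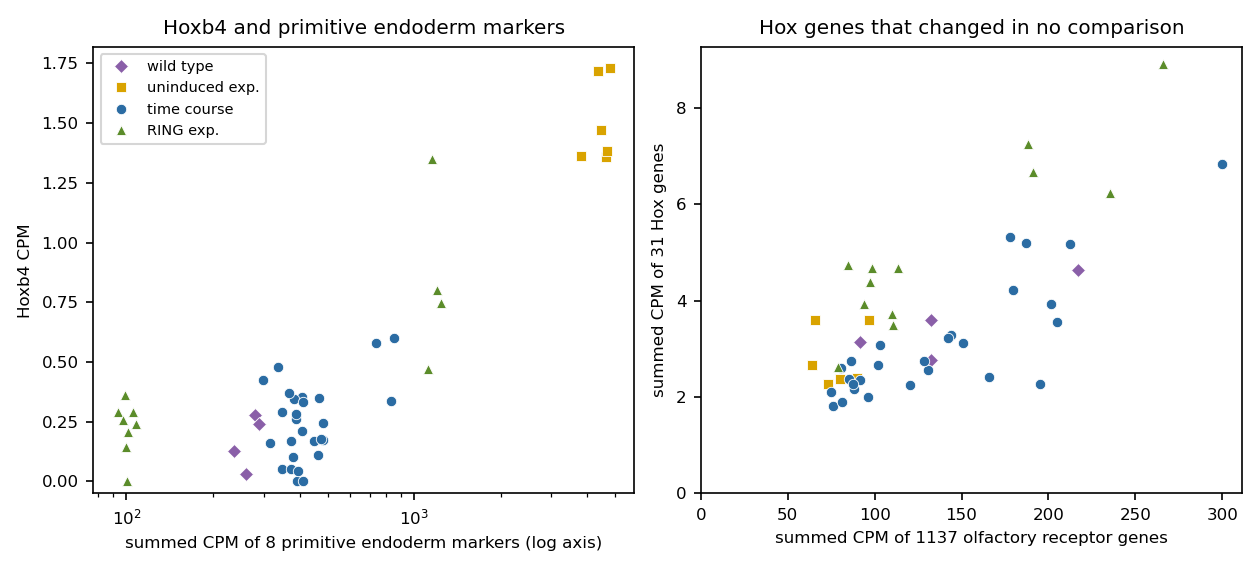
Left, Hoxb4 CPM against the summed CPM of 8 primitive endoderm markers (log axis) in the 49 libraries, by experiment; right, summed CPM of the 31 Hox genes that changed in no comparison against the summed CPM of 1137 olfactory receptor genes. The 6 uninduced-experiment libraries lie at the top right of the left panel, at 1.36 to 1.73 CPM of Hoxb4, and on the right the ligase-null library with the highest Hox sum (8.91 CPM) has an olfactory receptor sum of 266 CPM.

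The 31 Hox genes that changed nowhere were low together. Their summed level was 3.23 to 5.31 CPM at 12 h with Trim24 degraded, 2.26 to 3.55 CPM at 12 h with Trim24 expressed and 1.81 to 2.60 CPM at 0 h. In the RING-domain experiment it was 3.50 to 8.91 CPM in ligase-null, 2.62 to 4.75 CPM in Trim24-degraded and 4.39 to 6.67 CPM in Trim24-expressing cells. The summed level of 1137 olfactory receptor genes, which stem cells do not use and which were added after seeing the data, was 142 to 187 CPM at 12 h with Trim24 degraded, 166 to 205 CPM with Trim24 expressed and 74.8 to 80.6 CPM at 0 h, and 111 to 266 CPM in ligase-null, 79.1 to 110 CPM in degraded and 97.3 to 191 CPM in expressing cells of the RING-domain experiment. Its part in the levels of the quiet Hox genes was not tested. Between 21 and 38 Hox genes had at least 1 read in a library.

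Lists of genes that work with Hox proteins or act on the clusters are read beside the 53.2% of all genes tested that changed at 12 h of activation with Trim24 expressed, and several lie near that share. The lists were chosen with earlier results of these data known. At that time 2 of 9 TALE cofactors, the homeodomain partners of Hox proteins, rose and 3 fell. Pknox2 rose by 1.64 ± 0.16, while Meis2 fell by 2.88 ± 0.16 and Pbx2 by 1.51 ± 0.08 on the log2 scale. Of 5 tested Caudal, Evx and ParaHox genes, relatives and upstream regulators of Hox genes, 1 rose (Pdx1, 1.251 ± 0.21) and 3 fell, Cdx1 (-2.91 ± 0.19), Evx1 (-2.07 ± 0.18) and Cdx2 (-0.85 ± 0.19). In the retinoic acid pathway 8 of 18 rose and 4 fell, among them Cyp26b1, which degrades retinoic acid (3.47 ± 0.18), Aldh1a3, which makes it (2.77 ± 0.14), the vitamin A receptor Stra6 (2.08 ± 0.18) and the receptor Rarg (-2.73 ± 0.08). Of 13 Trithorax and MLL genes, which keep Hox genes on, 7 fell, among them Wdr5 (-1.44 ± 0.05), and none rose by limma or limma-voom. Of 22 Polycomb genes, which keep them off, 2 rose and 10 fell, with Jarid2 at -2.41 ± 0.06, Phc1 at -2.25 ± 0.08, Pcgf2 at -1.92 ± 0.10 and Mtf2 at -1.89 ± 0.06. All these passed limma, with Cdx2 the least certain of them (adjusted p = 0.0006), beside 30.3% of all genes tested that rose and 22.9% that fell. Under quantile normalization the genes named here kept their direction and their call, and the counts became 1 higher and 4 lower for TALE, 1 and 3 for Caudal, Evx and ParaHox, 6 and 5 for retinoic acid, 0 and 5 for Trithorax and 1 and 10 for Polycomb genes.

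Of 23 tested genes that flank the 4 clusters, 2 rose and 8 fell at 12 h. Ttll6, a tubulin-modifying enzyme beside HOXB, rose by 2.38 ± 0.09, and Calcoco2, an autophagy receptor beside HOXB, fell by 3.17 ± 0.08, as did Cbx3, a heterochromatin protein gene beside HOXA, by 2.38 ± 0.08. The same split of 2 and 8 was found under quantile normalization. Under Trim24 loss at 12 h, where 4.11% of all genes tested changed, the changed genes were 1 of 3 Caudal, Evx and ParaHox genes (Gsx2, 0.85 ± 0.23), 2 of 18 retinoic acid genes (Cyp26a1, 1.10 ± 0.21, and Dhrs3, -0.89 ± 0.17) and 1 of 22 Polycomb genes. By limma and by limma-voom 0 of 9 TALE, 0 of 13 Trithorax and 0 of 22 flanking genes changed there, with 1, 1 and 7 at an unadjusted p under 0.05, beside 41.5% of all genes at that p and 4.27% of all called by limma-voom. In ligase-null against Trim24-expressing cells, Meis1 (1.70 ± 0.20), Cyp26a1 (2.74 ± 0.22), Rdh10 (1.12 ± 0.09) and Phf19 (0.87 ± 0.14) were higher, and Stra8, a retinoic acid target (-3.11 ± 0.10), Crabp1 (-1.74 ± 0.10), Cdx1 (-0.97 ± 0.20), Pdx1 (-0.80 ± 0.24), Calcoco2 (-0.87 ± 0.06) and Ttll6 (-0.82 ± 0.09) lower. In that comparison, beside 6.95% of all genes tested, 1 of 9 TALE, 2 of 6 Caudal, Evx and ParaHox, 6 of 18 retinoic acid, 1 of 22 Polycomb and 2 of 23 flanking genes changed, and 0 of 13 Trithorax genes by limma or limma-voom (7.06% of all by the second), with 3 at an unadjusted p under 0.05 (45.9% of all).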

How the data were processed

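RNA was measured by stranded total RNA sequencing (TruSeq). The submitters' processing notes name bcl2fastq 2.17 and 2.20, STAR, featureCounts and edgeR, with build mm10. By the study's methods, reads with several matches were reported at 1 random match and counted at default settings, without strand, over GENCODE protein-coding genes. The deposited values are log2 CPM, scaled by TMM with a prior count of 8 by the authors. Their lowest value was -1.48 in all 49 columns, and removing the prior count gave whole reads for 100% of values (tolerance 0.01). CPM in the text is without the prior count.

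Since the deposited values are on the log2 scale, limma 3.58.1 in R 4.3.3 (trend and robust) was fitted to them for the groups compared, in place of the count test of the study. Genes were kept where the libraries at 0.5 or more above the lowest value numbered at least the size of the smaller group. Summaries used Python 3.11.15 and pandas 2.3.3. The fits were tested on simulated data. Changes were simulated only in genes with more reads than most Hox genes have, so that test does not cover most Hox genes. The choice of the Hox clusters as the subject, and all gene lists, were made with earlier results of these data known. Genes named are Hox genes changed in a comparison, the highest of each cluster, those with the lowest adjusted p where none changed, and up to 4 members of each other list. Hoxc12, Hoxd10, Hoxa13 and Hoxb13 were named after their values were seen. Results of a few genes that this rule would name are not reported here. Other lists are TALE, Caudal, Evx and ParaHox, retinoic acid, Trithorax, Polycomb and flanking genes, and markers of pluripotent cells, fibroblasts, streak and mesoderm, neuroectoderm, primitive endoderm and trophoblast. Alternatives tried were no filter and a stricter one, limma-voom fitted to whole reads, a prior count of 2, quantile normalization, no trend or robust fit, other thresholds, a replicate block, all groups in the fit, and leaving out each library. Depth of 14422098 to 35185256 reads limits most Hox genes to under 10 reads a library.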

Additional observations from a re-analysis of the deposited data

Results flagged for a closer look

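In 33 sets of 4 values, each set 1 measure over the libraries of 1 group, 3 values stood far from the others of their group, where chance alone sets apart about 1 in 20. All 33 sets are from the RING-domain experiment, the only one with groups of 4 libraries. Smaller groups were not checked in this way. Hoxd8 was 0.471 CPM in ligase-null replicate 4, against 0.300 to 0.326 CPM in the other ligase-null libraries. In that replicate 1 read is 0.0471 CPM, so the gap is only a few reads. In Trim24-expressing replicate 7 the 31 Hox genes that changed nowhere summed to 6.67 CPM, against 4.39 to 4.68 CPM in the other libraries of its group, and the olfactory receptor genes summed to 190.9 CPM, against 97.3 to 113 CPM.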

How the results depend on the processing

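Of the Hox calls, Hoxb9 under activation turned sign under quantile normalization, to -0.0311 at 8 h and -0.0249 at 12 h. Counts of changed Hox genes moved as follows, and the cause was not tested. With no filter they were 0 at 2 h (Hoxc13 lost), 1 at 4 h, 1 at 12 h of activation and 1 between 4 and 12 h. With a stricter filter, which left 2 to 5 Hox genes in these comparisons, they were 2 at 8 h, 1 for Trim24 loss at 12 h, 1 for ligase-null against expressing, 0 against degraded cells and 1 between 4 and 12 h. By limma-voom 5 changed at 12 h of activation, 1 for Trim24 loss at 12 h (Hoxd8 lost) and 1 between 4 and 12 h, and with a prior count of 2 the first of these was 6 and the second 1. Without trend and robust 1 changed at 4 h, for Trim24 loss at 12 h (Hoxd8, with Hoxd1 lost), for ligase-null against expressing and between 4 and 12 h. Under quantile normalization 1 changed for Trim24 loss at 12 h, 1 for ligase-null against degraded cells and 0 between 4 and 12 h. With the adjusted p alone, at 0.05 and whatever the fold, 2 changed at 2 h, 4 at 4 h, 6 at 12 h of activation, 5 for ligase-null against expressing and 7 against degraded cells, 4 between 4 and 12 h and 1 for the difference in Trim24 loss between those times. With all groups in the fit 2 changed at 2 h and 1 for that difference. Leaving out 1 library gave 1 to 2 at 2 h (2 without 0 h replicate 2), 1 to 2 at 4 h (1 without 0 h or 4 h replicate 1), 3 to 5 at 8 h, 2 to 4 at 12 h, 1 to 1 for Trim24 loss at 12 h, 0 to 2 in wild type, 1 to 4 for ligase-null against expressing (1 without ligase-null replicate 2), 1 to 4 against degraded cells (1 without degraded replicate 4 and 4 without ligase-null replicate 1), 1 to 3 between 4 and 12 h (1 without 4 h replicate 2 or 3 or 12 h replicate 1) and 0 to 1 for the difference in Trim24 loss. The other Trim24 comparisons stayed at 0. A library alone in its group was assumed to vary like the other group. Over all genes quantile normalization changed 2039 higher and 915 lower to 1604 and 1344 at 4 h, 4452 and 3016 to 3299 and 3629 at 8 h, and 4964 and 3762 to 3867 and 4382 at 12 h. CPM by the plain library total put Hoxc13 at 18.5 in degraded and 20.5 in expressing cells at 8 h, and at 22.0 and 22.1 at 12 h.

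Replicate numbers were not taken to pair the samples. In the time course, deviations of same-numbered libraries correlated between -0.364 and 0.383, with a median of -0.026 against 0.01 for other numbers. The medians were 0.09 against -0.09 in wild type and 0.019 against -0.011 in the uninduced experiment. In the RING-domain experiment they were 0.058 against -0.01. With a replicate block 2 Hox genes changed at 2 h and 1 (Hoxd1) for the difference in Trim24 loss between 4 and 12 h, and no other Hox count moved by over 1.5 times. No paired analysis was possible for the ligase-null comparisons because those groups share fewer than 2 numbers.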

Other observations

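Markers of other cell types moved within the same libraries under p53 activation. At 12 h with Trim24 expressed 5 of 8 tested trophoblast markers rose and 2 fell, with a summed level of 135 to 139 CPM at 12 h, as against 42.0 to 45.6 CPM at 0 h. Of 9 streak and mesoderm markers 3 rose and 3 fell, and their sum was 29.4 to 32.2 CPM at 12 h, as against 34.9 to 45.8 CPM at 0 h. Of 6 neuroectoderm markers Sox1, Lhx2 and Neurog2 rose and Tubb3 and Pax6 fell, and their sum was lower, at 69.0 to 73.1 CPM at 12 h, as against 165 to 185 CPM at 0 h. Under quantile normalization Neurog2 was not called. Fibroblast markers, of which Col1a1, Col1a2 and Twist2 rose among 7 tested, summed to 51.9 to 65.2 CPM at 12 h, as against 19.7 to 23.3 CPM at 0 h, and Lum, Fap and Twist2 were at 0 in all 0 h libraries. Of 8 primitive endoderm markers 5 fell, with a sum of 349 to 390 CPM at 12 h, as against 468 to 483 CPM at 0 h, and of 10 pluripotency markers 9 fell. Their part in the Hox results was not tested.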
